A study of Bos taurus with 6 samples.

Results

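*BDH1*, *BDH2*, *OXCT1* and *AACS*, enzymes that convert ketone bodies into each other or attach CoA to them, were read from the RNA-seq tables of bovine mammary epithelial cells (bMECs) with and without an edited *ACADSB* gene. The members were chosen by gene symbol, and 4 of 4 were found among the 15693 genes of the count table. In *ACADSB*-/- bMECs *OXCT1* and *BDH1* rose, *AACS* fell, and *BDH2* did not pass the test. Ketone bodies are small fuels, acetoacetate and 3-hydroxybutyrate, that the liver makes from acetyl-CoA and other tissues turn back into acetyl-CoA in their mitochondria. In ruminants the wall of the rumen also releases 3-hydroxybutyrate made from butyrate, and the mammary gland takes it from the blood as a carbon source for milk fat. *ACADSB* encodes a mitochondrial dehydrogenase of isoleucine breakdown, a route that ends in acetyl-CoA and propionyl-CoA.

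The study sequenced total RNA of 6 libraries, 3 from *ACADSB*-/- bMECs and 3 from control bMECs, called WT here, grown from the mammary tissue of a Chinese Holstein cow in lactation. The *ACADSB*-/- cells were transfected with a plasmid carrying Cas9, green fluorescent protein and a guide against *ACADSB*, sorted as single green cells and expanded, while no plasmid is named for the controls. All cells grew in medium with serum, hydrocortisone and insulin. The methods describe a monoclonal line grown from a sorted cell, whereas the series text can be read as 3 edited lines, and separate cultures are not named. The libraries were made from pooled RNA. The p-values therefore rest on the spread between these libraries alone, which may be technical, and the history of a sorted cell cannot be told apart from the edit.
The libraries held 30550275 to 34983965 counts. The edited gene, *ACADSB*, was read 9, 7 and 15 times in the *ACADSB*-/- libraries against 38, 34 and 20 times in WT, without overlap. Of the markers fixed for the cell types, the keratins *KRT8*, *KRT18* and *KRT5* had group means of 2353 to 3879 CPM (counts divided by the TMM-adjusted library total, on the usual per-million scale). The milk protein genes *CSN1S1*, *CSN1S2*, *CSN2* and *CSN3* were listed at 0 in every library, *LALBA* had 1 read in 1 WT library, and the alveolar factor *ELF5* was listed at 0. The luminal list (4 of 5 genes in the table) summed to 6183 to 6509 CPM in WT and 4650 to 5178 CPM in *ACADSB*-/- libraries, the basal list (4 of 4) to 3598 to 3805 and 3855 to 4145 CPM, and the fibroblast list (5 of 6), nearly all of it *DCN*, to 1103 to 1168 and 1287 to 1323 CPM. Members of a list moved in opposite directions: *KRT17* was 99.6 CPM in WT and 12.6 CPM in *ACADSB*-/- bMECs on average and *KRT14* 130 and 68.9 CPM, both lower against the rising basal sum, and *EPCAM* was 121 and 183 CPM, higher against the falling luminal sum. In the fibroblast list *COL3A1*, at 4.47 CPM in WT and 1.98 CPM in *ACADSB*-/- bMECs on average, was lower against the rising sum. *COL1A2* had 15, 12 and 5 counts in WT and 0 in each *ACADSB*-/- library. The adipocyte, immune and endothelial lists each summed to at most 2.04 CPM in any library. The part of these shifts in the results below was not tested, and in bulk RNA fewer cells of a type and less RNA per cell cannot be told apart.

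Of the 4 members, 2 were higher in *ACADSB*-/- bMECs, 1 was lower and 1 stayed above an adjusted p of 0.05 in edgeR's quasi-likelihood test, adjusted over all 13720 tested genes. Beside them 58.2% of all tested genes passed the test, 29.7% as higher and 28.6% as lower, so 3 of 4 is near what the whole table shows. No member changed by 2-fold or more, as 10.2% of all genes did.
Changes of this size were common. The log2 fold change of *OXCT1* was larger in size than that of 74.1% of the tested genes, that of *BDH1* than 50.5%, that of *AACS* than 36.3% and that of *BDH2* than 26.2%.

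*OXCT1* encodes succinyl-CoA:3-ketoacid CoA transferase of mitochondria, which moves CoA from succinyl-CoA to acetoacetate and so commits a ketone body to oxidation. It lies on the plus strand of chromosome 20, from 32798181 to 32962042 in the coordinates of the deposited table, whose genome build no source used here names, and its gene model is 2368 bases long. The *ACADSB*-/- libraries had 2936, 2462 and 2932 counts of *OXCT1*, or 83.2, 80.3 and 92.5 CPM. The WT libraries had 1781, 1760 and 1817 counts, or 54.3, 57.8 and 58.6 CPM. Every *ACADSB*-/- library stood above every WT library, with *ACADSB*-/- replicate 3 the highest of the 6. *OXCT1* rose from 56.9 ± 2.30 to 85.3 ± 6.39 CPM (SD, n = 3), a log2 fold change of 0.59 (standard error, SE, 0.0632, edgeR adjusted p = 3.6e-09), with a 95% interval of the fold of 1.37 to 1.64. Of all tested genes, 63.6% had groups that did not overlap: 31.9% had every *ACADSB*-/- library above every WT library, and 31.7% the reverse.

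*BDH1* encodes the 3-hydroxybutyrate dehydrogenase of the inner mitochondrial membrane, which converts 3-hydroxybutyrate and acetoacetate into each other with NAD. The table places it on the minus strand of chromosome 1, from 72836133 to 72872005, with a gene model of 1617 bases. The *ACADSB*-/- libraries had 2457, 2143 and 2053 counts, or 69.6, 69.9 and 64.8 CPM. The WT libraries had 1895, 1555 and 1707 counts, or 57.8, 51.1 and 55.1 CPM. The groups did not overlap, and the gap between *ACADSB*-/- replicate 3 and WT replicate 1 was the narrowest. *BDH1* rose from 54.6 ± 3.37 to 68.1 ± 2.87 CPM (SD, n = 3), a log2 fold change of 0.32 (SE 0.0642, edgeR adjusted p = 9.9e-05), or 1.25-fold with a 95% interval of 1.14 to 1.37. Against a threshold of 1.2-fold (glmTreat in edgeR) its adjusted p was 0.177.

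*AACS* encodes acetoacetyl-CoA synthetase, a cytosolic enzyme that activates acetoacetate for the synthesis of sterols and fatty acids without passing through the mitochondria. The table places it on the minus strand of chromosome 17, from 53125997 to 53179014, with a gene model of 3124 bases. The *ACADSB*-/- libraries had 3572, 3061 and 3152 counts, or 101, 99.8 and 99.5 CPM. The WT libraries had 3844, 3400 and 3741 counts, or 117, 112 and 121 CPM. The *ACADSB*-/- libraries were nearly level with each other and all lay below the WT libraries. *AACS* fell from 116 ± 4.54 to 100.2 ± 0.915 CPM (SD, n = 3), a log2 fold change of -0.22 (SE 0.0530, edgeR adjusted p = 8.2e-04), with a 95% interval of the fold of 0.798 to 0.927. Against 1.2-fold its adjusted p was 0.81.

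*BDH2* encodes a short-chain dehydrogenase of the cytosol that was named for its 3-hydroxybutyrate dehydrogenase activity and that in the mouse has been tied to the synthesis of an iron-binding siderophore. The table places it on the plus strand of chromosome 6, from 23238097 to 23269434, with a gene model of 1285 bases. The *ACADSB*-/- libraries had 903, 773 and 869 counts, or 25.6, 25.2 and 27.4 CPM. The WT libraries had 1050, 826 and 863 counts, or 32.0, 27.1 and 27.8 CPM. The groups overlapped, since *ACADSB*-/- replicate 3 stood above WT replicate 2, and WT replicate 1 was well above the other libraries. The means were 26.1 ± 1.18 CPM in *ACADSB*-/- and 29.0 ± 2.63 CPM in WT bMECs (SD, n = 3), with a log2 fold change of -0.15 (SE 0.0844, edgeR adjusted p = 0.121). The 95% interval of the fold, 0.798 to 1.01, holds no change as well as a decrease like that of *AACS*. Without WT replicate 2 the log2 fold change was -0.21 with an adjusted p of 0.0467 in the same test, and without WT replicate 1 it was -0.08; its adjusted p ranged from 0.0467 to 0.943 over the settings tried.

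**Figure D1:**
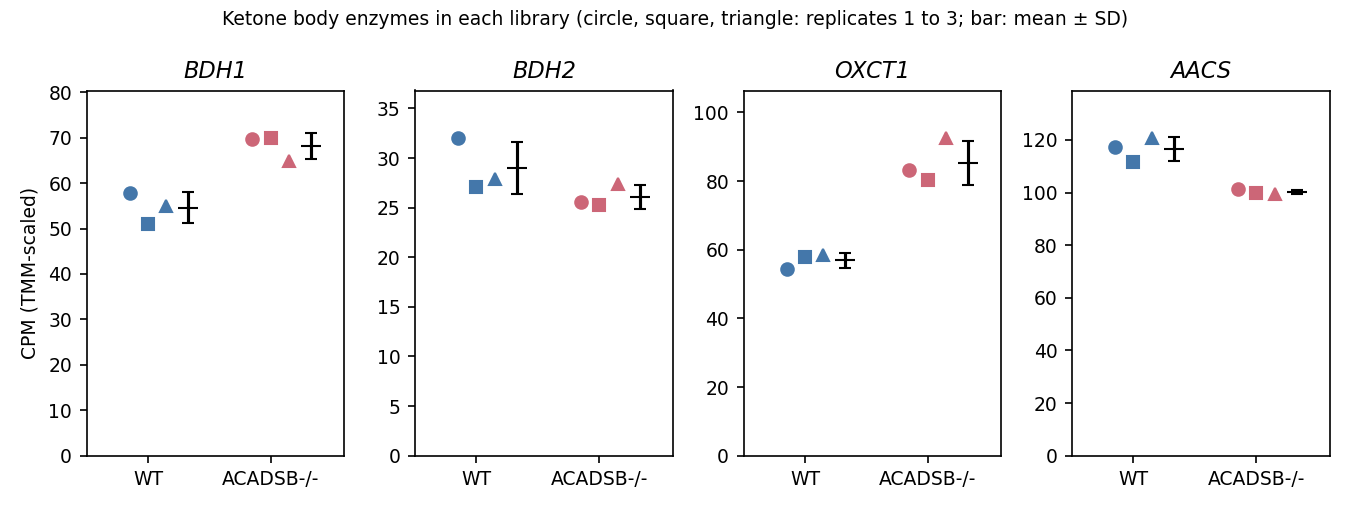
CPM of each ketone body enzyme in the 3 WT libraries (blue) and the 3 ACADSB-/- libraries (red), with the mean ± SD in black. Circle, square and triangle mark the replicates in order of their number, and each axis starts at 0. The ACADSB-/- points of OXCT1 (80.3 to 92.5 CPM) and BDH1 (64.8 to 69.9 CPM) lie above WT and those of AACS (99.5 to 101 CPM) below, while those of BDH2 overlap.

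Levels of different genes were compared in FPKM, the authors' reads divided by gene length and library total. All 4 enzymes were well expressed, between 68.1% and 84.1% of the tested genes lying at or below them in the library concerned. In WT bMECs *AACS* was the highest with 35.6 to 37.8 FPKM, just above *BDH1* with 31.5 to 35.4 FPKM. *OXCT1* (22.7 to 24.3 FPKM) and *BDH2* (21.0 to 24.7 FPKM) followed and overlapped, with *BDH2* above *OXCT1* in WT replicate 1.
In *ACADSB*-/- bMECs the order was *BDH1* (41.0 to 43.4 FPKM), *OXCT1* (34.0 to 39.9 FPKM), *AACS* (32.1 to 32.7 FPKM) and *BDH2* (19.7 to 21.8 FPKM) in each of the 3 libraries, and no neighbours in this order overlapped. The cytosolic *AACS* was thus the top gene of the 4 in every WT library and the third in every *ACADSB*-/- library. Summed over the 4 genes the level was 112 to 120 FPKM in WT and 129 to 135 FPKM in *ACADSB*-/- libraries. *OXCT1* took 18.9% to 21.6% of this sum in WT and 26.3% to 29.5% in *ACADSB*-/- libraries, and *AACS* took 31.0% to 32.4% and 24.1% to 24.8%.

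**Figure D2:**
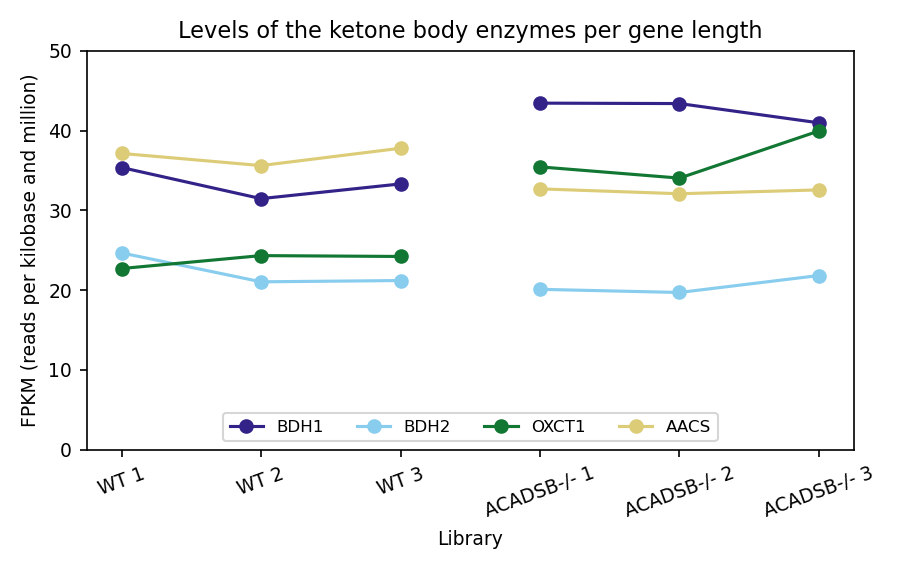
FPKM of the 4 enzymes in each library, WT on the left and ACADSB-/- on the right, with lines joining the libraries of a group only to guide the eye. AACS leads in WT (35.6 to 37.8 FPKM) and BDH1 in ACADSB-/- (41.0 to 43.4 FPKM), and OXCT1 moves from the level of BDH2 to above AACS.

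The ratio of a pair of genes within a library does not depend on the scaling of that library. For 5 of the 6 pairs the log2 ratios of FPKM did not overlap between the groups. The 6 pairs share 4 genes, of which *OXCT1*, *BDH1* and *AACS* already stood apart singly, as 63.6% of all tested genes did. The share over all gene pairs was not computed. The ratio of *OXCT1* to *AACS*, which attach CoA to acetoacetate in mitochondria and in the cytosol, was 0.611 to 0.683 in WT and 1.06 to 1.23 in *ACADSB*-/- libraries, a difference of 0.80 in the mean log2 ratio. This was the largest of the 6 differences, as it had to be, since *OXCT1* rose most and *AACS* fell most of the members. Each difference restates the changes of both members of its pair and is not a separate result. The ratio of *BDH1* to *BDH2*, the mitochondrial beside the cytosolic dehydrogenase, was 1.43 to 1.57 in WT and 1.88 to 2.20 in *ACADSB*-/- libraries, a difference of 0.47 on the log2 scale.
The ratio of *OXCT1* to *BDH1*, both mitochondrial, was 0.642 to 0.773 in WT and 0.785 to 0.975 in *ACADSB*-/- libraries, with a narrow gap and a difference of 0.26, which was 0.17 without *ACADSB*-/- replicate 3. The ratio of *BDH2* to *AACS*, both cytosolic, overlapped between the groups and differed by 0.07. With 3 libraries against 3 the exact two-sided permutation test cannot go below p = 0.1, which the 5 pairs reached (0.12 adjusted over the 6 pairs), while *BDH2* to *AACS* had an exact p of 0.4.

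**Figure D3:**
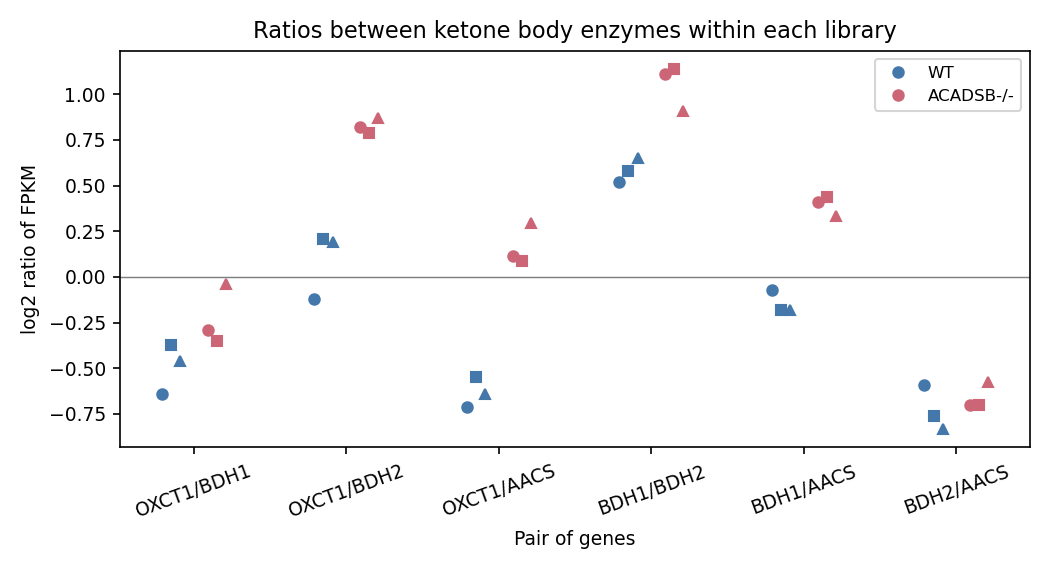
Log2 ratio of FPKM for the 6 pairs of ketone body enzymes in each WT (blue) and ACADSB-/- (red) library, with 0 meaning equal levels. Circle, square and triangle mark the replicates in order of their number. The groups stand apart for 5 pairs, most for OXCT1/AACS with a difference of 0.80, and overlap for BDH2/AACS.

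The other genes of the pathway were taken from lists of 52 genes, of which 37 could be tested. Of these 19 were higher and 11 lower in *ACADSB*-/- bMECs and 7 did not pass (81.1% called, beside 58.2% of all tested genes), with a median log2 fold change of 0.12 beside 0.00 over all tested genes. The lists were chosen with earlier results of these data known, so this share and those of the single lists below are a description and not a test.
For the synthesis of ketone bodies from acetyl-CoA, *ACAT1*, the mitochondrial thiolase that serves ketone bodies as well as the last step of isoleucine breakdown, had 95.9, 91.6 and 95.7 CPM in *ACADSB*-/- and 68.3, 75.1 and 69.9 CPM in WT libraries. The groups did not overlap, and *ACAT1* rose by 0.41 on the log2 scale (SE 0.0575, edgeR adjusted p = 4.7e-07).
The cytosolic enzymes that share substrates with *AACS* in sterol synthesis moved apart. *HMGCS1*, the cytosolic HMG-CoA synthase, rose from 832 ± 25.3 to 2474 ± 64.0 CPM (SD, n = 3), a log2 fold change of 1.57 (SE 0.0467, edgeR adjusted p = 1.9e-22). *ACAT2*, the cytosolic thiolase, fell by 0.15 on the log2 scale (SE 0.0552, edgeR adjusted p = 0.0206), a call that ended without *ACADSB*-/- replicate 2 (-0.13, adjusted p = 0.0781) or WT replicate 1 (-0.12, adjusted p = 0.112) and reached at best 0.00458 (without WT replicate 2).

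Cells take up ketone bodies through monocarboxylate transporters. Of 11 transport genes 6 could be tested, of which 3 were higher and 3 did not pass (50% called, beside 58.2% of all tested genes). *SLC16A1* (MCT1), the widely expressed carrier of lactate and ketone bodies, named after its values were seen, had 128, 117 and 119 CPM in *ACADSB*-/- and 93.6, 104 and 90.6 CPM in WT libraries, without overlap, and rose by 0.33 on the log2 scale (SE 0.0582, edgeR adjusted p = 1.3e-05). *EMB* (embigin), a chaperone of these carriers, rose by 1.00 (SE 0.0873, edgeR adjusted p = 4.7e-11) from 18.9 ± 2.31 to 37.7 ± 0.613 CPM (SD, n = 3). *BSG* (basigin), the other chaperone in the list, was named after its values were seen. It was far more abundant, with 677 CPM in WT and 692 CPM in *ACADSB*-/- bMECs on average. Its log2 fold change was 0.03 (edgeR adjusted p = 0.622).
*SLC16A3* (MCT4), a lactate exporter, was low with 41, 46 and 56 counts in the edited libraries against 11, 9 and 18 in WT, and rose by 1.86 (SE 0.402, edgeR adjusted p = 2.3e-04). *SLC16A7* (MCT2) was listed at 0 in all libraries. Of the receptors for these acids, *FFAR3* was listed at 0 and *HCAR1* had at most 2 reads in any library. The remaining receptor of the list, *HCAR2*, matched no gene symbol in the counts or FPKM values, so its level is not known.

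All 5 tested regulators of ketone body synthesis passed the test, 3 higher and 2 lower, beside 58.2% of all tested genes. *PPARA*, the nuclear receptor that turns on fatty acid oxidation and ketone body synthesis in fasted liver, had 351, 374 and 410 counts in the edited libraries against 182, 182 and 174 in WT and rose by 1.03 on the log2 scale (SE 0.134, edgeR adjusted p = 1.2e-07). *FGF21*, a fasting hormone that is itself a target of *PPARA* in liver, had 168, 202 and 173 counts against 345, 310 and 319 and fell by 0.89 (SE 0.140, edgeR adjusted p = 3.0e-06). *SIRT3*, a mitochondrial deacetylase, rose by 0.77 (SE 0.222, edgeR adjusted p = 0.0038), although the groups overlapped in CPM (4.39, 4.63 and 2.90 against 1.77, 2.96 and 2.29, from 155, 142 and 92 counts against 58, 90 and 71).

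Of 8 genes of the cytosolic use of acetyl-CoA and acetoacetyl-CoA 5 were higher, 1 was lower and 2 did not pass (75% called, beside 58.2% of all tested genes). *SQLE*, squalene epoxidase of sterol synthesis, rose by 0.84 on the log2 scale (SE 0.0573, edgeR adjusted p = 3.2e-13). *ACSS2*, which activates acetate, the main carbon source of ruminant milk fat, rose by 0.71 (SE 0.0490, edgeR adjusted p = 2.1e-13) from 192 ± 9.08 to 315 ± 5.70 CPM (SD, n = 3).
The transferase of *OXCT1* uses succinyl-CoA, and of 7 genes of succinyl-CoA and citrate synthesis 4 were higher, 2 lower and 1 did not pass (85.7% called, beside the same 58.2%). *DLD*, the shared dihydrolipoamide dehydrogenase of the 2-oxoglutarate complex, rose by 0.73 (SE 0.0663, edgeR adjusted p = 1.0e-10). *SUCLA2*, the ATP-forming subunit of succinyl-CoA ligase, rose by 0.68 (SE 0.0772, edgeR adjusted p = 9.1e-09). The 2 lower genes, *SUCLG1* and *OGDH*, were named after their values were seen. *SUCLG1* fell by 0.26 (SE 0.0551, edgeR adjusted p = 1.9e-04) and *OGDH* by 0.13 (SE 0.0486, edgeR adjusted p = 0.0236).
Of 9 genes of iron and siderophore handling, chosen for the role of *BDH2* in the mouse, 2 were higher, 5 lower and 2 were not tested (100% of the tested genes called, beside the same 58.2%). *FTL*, the ferritin light chain, fell by 0.81 (SE 0.0499, edgeR adjusted p = 1.6e-14) from 493 ± 12.3 to 281 ± 17.7 CPM (SD, n = 3). The more abundant heavy chain, *FTH1*, named after its values were seen, went the other way. It rose by 0.25 (SE 0.0486, edgeR adjusted p = 6.4e-05), from 2170 to 2579 CPM on average. *SLC22A17*, a receptor for the siderophore-binding protein lipocalin 2, had 0, 1 and 1 counts in the edited libraries against 67, 68 and 75 in WT. Adjusted for library totals, the WT level was 109 times as high (exact 95% limits 29.7 and 904, for counting error alone). *LCN2*, lipocalin 2 itself, had 1 read in 1 WT library and was listed at 0 in the others.

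**Figure D4:**
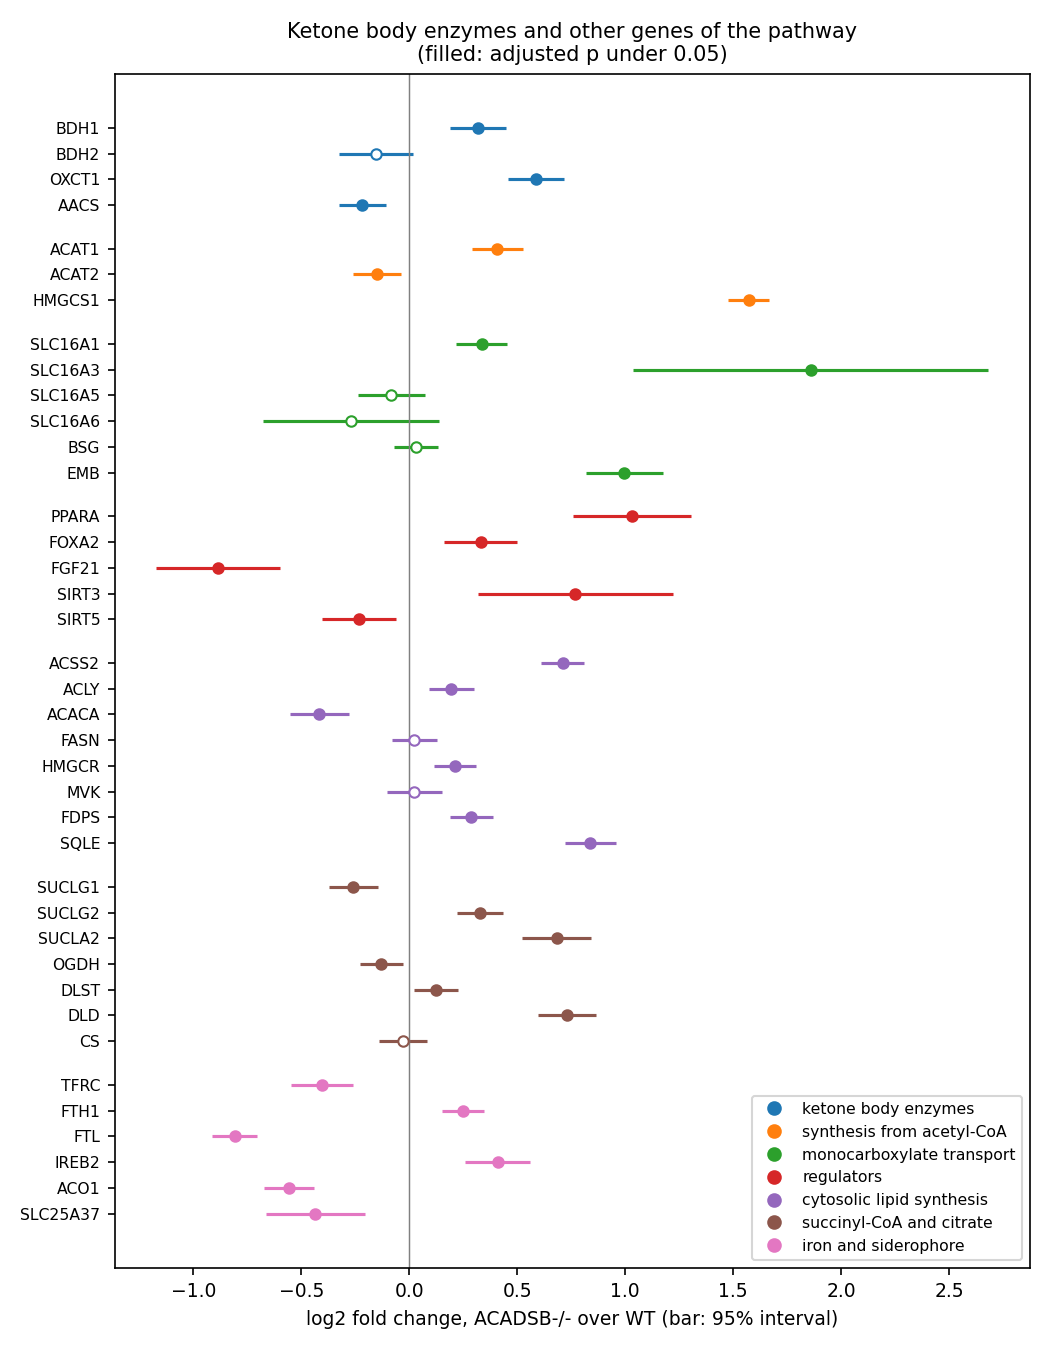
Log2 fold change of ACADSB-/- over WT with its 95% interval for the 4 ketone body enzymes (top) and 35 of the 37 tested genes of the other lists, coloured by list; filled points passed an adjusted p of 0.05 in edgeR. SLC22A17, at -6.52 from 2 counts in all ACADSB-/- libraries, lies off the scale, and 1 further gene is not drawn. HMGCS1 (1.57) and SLC16A3 (1.86) lie far to the right of OXCT1 (0.59).

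No other gene of the authors' 32774 gene models overlapped any of the 4 members on either strand. The 3 nearest genes of the count table on each side gave 24 neighbours, of which 21 could be tested: 12 were higher, 3 lower and 6 did not pass (71.4% called, beside 58.2% of all tested genes). Their distances ran from 1410 to 3098688 bases, so not all of them are local to a member. *BDH2* lay between a pair of genes that rose by more than 2-fold while it did not pass the test itself. *CENPE*, a kinesin of the kinetochore whose gene ends 4105 bases before *BDH2* on the same strand, had 1328, 946 and 1028 counts in the edited libraries against 415, 525 and 588 in WT and rose by 1.05 on the log2 scale (SE 0.123). *LOC107132553*, which starts 1410 bases after *BDH2* on the same strand, had 580, 548 and 623 counts against 277, 220 and 227 and rose by 1.23 (SE 0.114).
Beside *AACS*, *TMEM132B*, a transmembrane protein gene 33214 bases away, had 181, 157 and 158 counts against 62, 71 and 53 and rose by 1.36 (SE 0.193), while *AACS* fell. Of the tested neighbours of *BDH1* 3 rose and 2 did not pass, and of those of *OXCT1* 3 rose, 1 fell and 2 did not pass. The called neighbours of *OXCT1* all lay far from it, at 792823 to 1081155 bases.

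**Figure D5:**
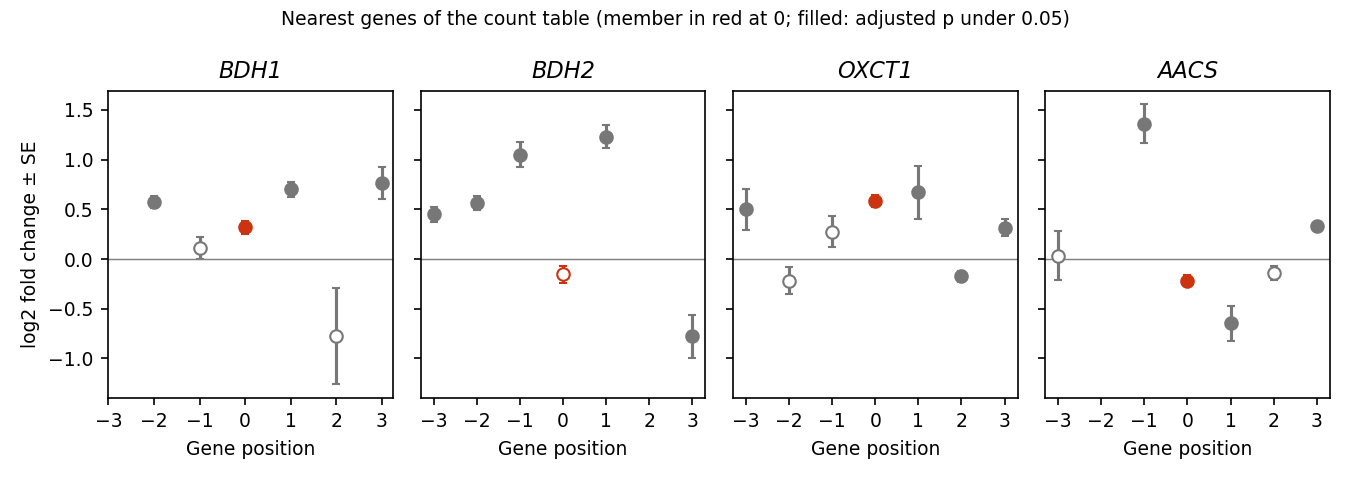
Log2 fold change ± standard error of each ketone body enzyme (red, position 0) and of the tested genes among its 3 nearest neighbours in the count table on each side (grey, ordered along the chromosome); filled points passed an adjusted p of 0.05. The neighbours of BDH2 at positions -1 and 1 lie at 1.05 and 1.23, while BDH2 lies at -0.15.

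The genes most like each member over the 6 libraries were found by Pearson's r of log2 CPM among the 11011 other tested genes with a mean of at least 100 counts. These values are a description, since all genes share the same libraries and, except for *BDH2*, the difference between the groups carries much of them. For *OXCT1* they were *AKAP9*, an anchoring protein of protein kinase A at the centrosome and Golgi (r = 0.999), *ZDHHC20*, a palmitoyltransferase (r = 0.998), and *ARHGEF12*, a guanine nucleotide exchange factor (r = 0.998), and 22.1% of the candidates had r above 0.9. For *BDH1* they were *RAB31*, *JOSD1* and *VPS11* (r = 0.995, 0.994 and 0.993), of membrane traffic and deubiquitination, with 9.63% above 0.9.
For *AACS* they were *SNRPA*, a protein of the U1 spliceosome particle (r = 0.999), and *NACC1* (r = 0.999), with 20.2% above 0.9. *BDH2* had few such genes, with 0.608% above 0.9 and *STK35*, *GPR157* and *PIAS4* nearest (r = 0.990, 0.983 and 0.982). Like *BDH2*, *STK35* and *GPR157* did not pass the test between the groups (edgeR adjusted p = 0.195 and 0.829), while *PIAS4* did (0.0255). Among the members, r over the 6 libraries was 0.840 between *OXCT1* and *BDH1*, 0.682 between *BDH2* and *AACS*, and -0.934 between *OXCT1* and *AACS*.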

How the data were processed

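The authors removed reads with adapters, unknown bases or low quality, aligned the rest to a genome that the methods do not name and deposited raw read counts per gene and FPKM values, which are reads divided by gene length and library total. FPKM recomputed from the deposited counts and gene lengths was within 0.1% for 99.98% of the genes. The submitters' notes name Bismark 0.12.5 with no role. For the aligner, counter, strand setting, build and annotation no source used here gives a name. The deposited fold, log2 and p-value columns hold the authors' own comparison (EB-Seq is named) and were not used, nor were 3 FPKM columns of cells that are not samples of this series.

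Libraries were grouped by their labels. Counts were tested with edgeR 4.0.16 (filterByExpr with a minimum count of 10 and a total of 15, TMM, robust quasi-likelihood fit on condition, all 6 libraries) in R 4.3.3, with Benjamini-Hochberg adjustment over all 13720 tested genes. Standard errors were derived from the log2 fold change and its F statistic. At 30550275 to 34983965 counts per library the biological coefficient of variation was 6.64%. Alternatives were DESeq2 1.42.0, limma 3.58.1 on log2(FPKM + 1) and log2(FPKM + 0.1), RLE and upper quartile factors, other filters, a replicate block, a test against 1.2-fold and leaving out each library. The steps were run on simulated data with few changed genes and a common dispersion. That setting differs from the broad change seen here, so the run checks the code alone. Figures used matplotlib 3.10.9. The 4 symbols matched RefSeq by gene ID.

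The members and lists were chosen with earlier results of these data known. Genes were named by rule: the members, list genes called at 1.5-fold or more (22.7% of all genes were), genes of ketone body synthesis, neighbours called at 2-fold or more, and the 3 genes most like each member. Some genes that this rule selects are not reported here. Intervals and ratios of low counts cover counting error only. Replicate libraries differed by more than sampling noise (chi-square per degree of freedom 3.90 to 9.58).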

Additional observations from a re-analysis of the deposited data

How the results depend on the processing

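Under 15 alternatives each, *OXCT1* kept its direction and its call (log2 fold change 0.53 to 0.63). Tested against 1.2-fold, *BDH1* (0.32, adjusted p = 0.177) and *AACS* (-0.22, adjusted p = 0.81, edgeR) lost their calls, and the counts called were 1 member, 17 list genes and 4526 genes in all, in place of 3, 30 and 7990, by the construction of that test. Under the other alternatives both kept their calls. Leaving out each library in turn gave 0.26 to 0.36 for *BDH1*, -0.26 to -0.20 for *AACS*, 0.53 to 0.63 for *OXCT1* and -0.21 to -0.079 for *BDH2*, which passed without WT replicate 2 alone and made the called members 3 to 4; the cause was not tested. The genes called at 2-fold were 1402, 855 with a minimum mean of 50 counts and 540 with limma on log2(FPKM + 1). Without WT replicate 2 the called neighbours that were lower were 5 in place of 3. *SLC16A1* (adjusted p = 0.1003) and 6 of the genes most like a member also lost their calls against 1.2-fold alone. *ACAT2* lost its call under 5 alternatives and *PIAS4* under 6 alternatives (adjusted p up to 0.568). No log2 ratio of a pair moved by more than 1 SD pooled over both groups. No named gene reversed, with *BSG*, *FTH1*, *SUCLG1*, *OGDH* and the cell type markers not followed under the alternatives.

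Same-numbered libraries did not deviate together (r of deviations from the group means -0.0402, -0.0256 and -0.0236), and no library correlated best with its own number. With the replicate number as a block the log2 fold changes were 0.32 for *BDH1*, -0.15 for *BDH2*, 0.58 for *OXCT1* and -0.22 for *AACS*, with 3 members, 29 list genes and 7806 genes in all called. The block changed no call of a member. The number of libraries limits the exact tests, and at 773 to 3844 counts per library counting error is small for each member.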

Other observations

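*PPARGC1A*, a coactivator of *PPARA* chosen after its values were seen, fell below the count filter: 2, 16 and 4 counts with the edit against 0, 1 and 0 without it. The highest value came from *ACADSB*-/- replicate 2.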
